A study of Arabidopsis thaliana with 30 samples.

Results

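The response of Arabidopsis thaliana to the cue1 mutation was compared between plants grown in 16-hr and in 12-hr days. The quantity tested was the difference of 2 effects: cue1 16-hr over wildtype 16-hr, minus cue1 12-hr over wildtype 12-hr, on the log2 scale. It used 12 of the 30 RNA-seq libraries of the study, 3 in each of the 4 groups cue1 16-hr, wildtype 16-hr, cue1 12-hr and wildtype 12-hr. All 4 groups are Col-0 plants that received no heat, and each group has 3 full-sib biological replicates. The tissue is labelled leaf at bolting, while the design text speaks of aboveground tissue at bolting or flowering. The wild types sequenced for sal1 and for hda6 were left out of the test, so that each cue1 group was set against the wild type of its own set. Which cue1 allele was used, how many plants made a library and at what hour they were harvested is not stated in the labels. Among these 12 libraries each day length is a sequencing set of its own, so effects of day length and of the set cannot be told apart.

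CUE1 encodes a phosphoenolpyruvate/phosphate translocator of the plastid envelope, which brings phosphoenolpyruvate into the chloroplast for the shikimate pathway and so for the aromatic amino acids. Mutants of it are known for pale, net-like leaves and for low expression of light-induced nuclear genes for chloroplast proteins. The circadian clock is a loop in which the Myb factors CCA1 and LHY, high in the morning, repress evening genes through a promoter sequence called the evening element, and evening genes in turn repress CCA1 and LHY. Day length sets the time at which many clock genes peak, so the level of such a gene in one harvest depends on the hour at which it was taken.

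The 16-hr libraries held 17568323 to 22275044 gene counts and the 12-hr libraries 32306939 to 33747006. Reads counted in no feature were 48.0% to 48.3% of the 16-hr libraries and 2.58% to 5.78% of the 12-hr libraries. Whether they include reads on the opposite strand of genes is not known, as no source used here gives the strand setting. The leading principal component of the log2 values separated the 2 sets. CUE1 (AT5G33320) was low in all cue1 libraries: 15.1, 14.5 and 15.5 CPM (counts scaled to library size) in cue1 16-hr against 198, 212 and 200 in wildtype 16-hr, and 9.43, 9.11 and 13.8 in cue1 12-hr against 127, 125 and 127 in wildtype 12-hr. Its log2 fold change was -3.76 at 16-hr and -3.55 at 12-hr, and the difference of -0.21 ± 0.18 (SE) was not called (edgeR adjusted p = 0.613, 95% interval -0.59 to 0.18). Leaf genes were abundant in every group, with light-harvesting antenna genes summing to 53000 to 75600 CPM in cue1 16-hr, 91900 to 103000 in wildtype 16-hr, 63000 to 77000 in cue1 12-hr and 60000 to 87900 in wildtype 12-hr. The summed level of the 9 floral organ genes tested, of 10 listed, was 10.4 to 15.4 CPM in cue1 16-hr, 6.42 to 10.3 in wildtype 16-hr, 2.35 to 4.54 in cue1 12-hr and 1.85 to 2.3 in wildtype 12-hr. In the library where each was highest, SHP1 reached 5.88 CPM and the other genes tested 0.844 to 1.64. SHP2, a carpel gene with too few counts to be tested, reached 0.173 CPM. In bulk tissue, fewer cells of a type and less RNA per cell cannot be told apart, here and in all values that follow.

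The cue1 effect differed between the day lengths for 168 of 21163 genes tested (0.794%, edgeR quasi-likelihood test, Benjamini-Hochberg adjusted p under 0.05), and 15.7% of all genes had an unadjusted p under 0.05. Of the 168, 74 (0.35%) had a more positive and 94 (0.444%) a more negative effect in 16-hr days. The 74 were mostly genes that rose in cue1 at 16-hr and moved little at 12-hr: 62 were called at 16-hr only, 8 at both and 3 at 12-hr only, and the median log2 fold change was 0.80 at 16-hr and -0.062 at 12-hr. In 60 of the 74, wildtype 16-hr had the lowest mean of the 4 groups. Of the 94, 61 were called at 16-hr only, 19 at 12-hr only, 7 at both and 7 at neither, and the median was -0.55 at 16-hr and 0.31 at 12-hr. The effects at the day lengths had opposite signs in 76 of the 94, above 0 at 12-hr, and in 45 of the 74. Over all genes tested, 53.6% had the same sign at both. Selection by the difference of the 2 effects itself moves their signs apart, so these counts are descriptions. Both effects were called in opposite directions in 4 of the 94 and in 0 of the 74. In 55 of the 94, wildtype 16-hr had the highest mean, and in 59 cue1 16-hr had the lowest.

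The effect at each day length was also tested on its own. At 16-hr, 1231 genes (5.82%) changed in cue1, 574 higher (2.71%) and 657 lower (3.1%), and at 12-hr 332 genes (1.57%) changed, 180 higher (0.851%) and 152 lower (0.718%). Of these, 141 were called at both day lengths, 4 of them in opposite directions. The 137 that moved the same way, 46 higher and 91 lower, are 11.1% of the 16-hr and 41.3% of the 12-hr calls. A gene called at one day length only is not thereby shown to differ: of 1090 genes called at 16-hr only, 123 passed the test of the difference, and of 191 called at 12-hr only, 22 did. Libraries of cue1 and wildtype did not overlap for 26.1% of all genes tested at 16-hr and for 21.0% at 12-hr. Groups given as separate in what follows are to be read beside these shares.

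The number of calls moved with single libraries. Leaving out each library in turn gave 92, 369 and 76 calls of the difference without cue1 16-hr replicates 1, 2 and 3, and 64, 47 and 67 without those of wildtype 16-hr. It gave 61, 72 and 64 without those of cue1 12-hr, and 56, 350 and 83 without those of wildtype 12-hr. All 168 genes kept their sign in all 12 of these fits, and 42 (22 positive and 20 negative) stayed called in all of them. The 16-hr count moved most without cue1 16-hr replicate 3 (523) and wildtype 16-hr replicates 1 (600) and 2 (496). The 12-hr count moved most without cue1 12-hr replicates 1 (71), 2 (196) and 3 (171), wildtype 12-hr replicates 1 (147) and 3 (93), and wildtype 16-hr replicate 2 (181).

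Wildtype 12-hr replicate 2 and cue1 12-hr replicate 3 had the lowest shares of reads in no feature, 2.58% and 3.62%. Without both there were 118 calls of the difference, of which 80 were among the 168, and 139 calls at 12-hr. Of the genes described in what follows, 10 were then no longer called for the difference at an adjusted p of 0.051 to 0.0548 (RBCS2B, LHCB4.3, BXL1, RVE4, PMI1, PMI15, HCF173, GRP7, FIB1 and AT2G37990), and AT3G15460, PGR3, AT5G03585 and TPS8 at 0.0627, 0.0652, 0.0767 and 0.1 in that order. The 12-hr effects of FKF1, COR27, AT4G33980, PRR3, BBX8, AT1G17665, AT4G33666, RBCS2B, ATSPS4F, JAC1, PGR3, AT3G01345, TOC1, RUP2, JAZ5, CYP94C1 and PAL2 were no longer called either. With limma voom, TPS03, AT5G03585 and TPS8 were not called for the difference (0.0659, 0.0631 and 0.0503), and neither was MAF5, as given with its values below. With all 30 libraries in the model PMI15 was not called (0.106), and with no filter on low counts PGR3, FIB1 and AT2G37990 were not (0.0532 each). With relative log expression scaling FIB1 and AT2G37990 were not called (0.0519 and 0.052).

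**Figure D1:**
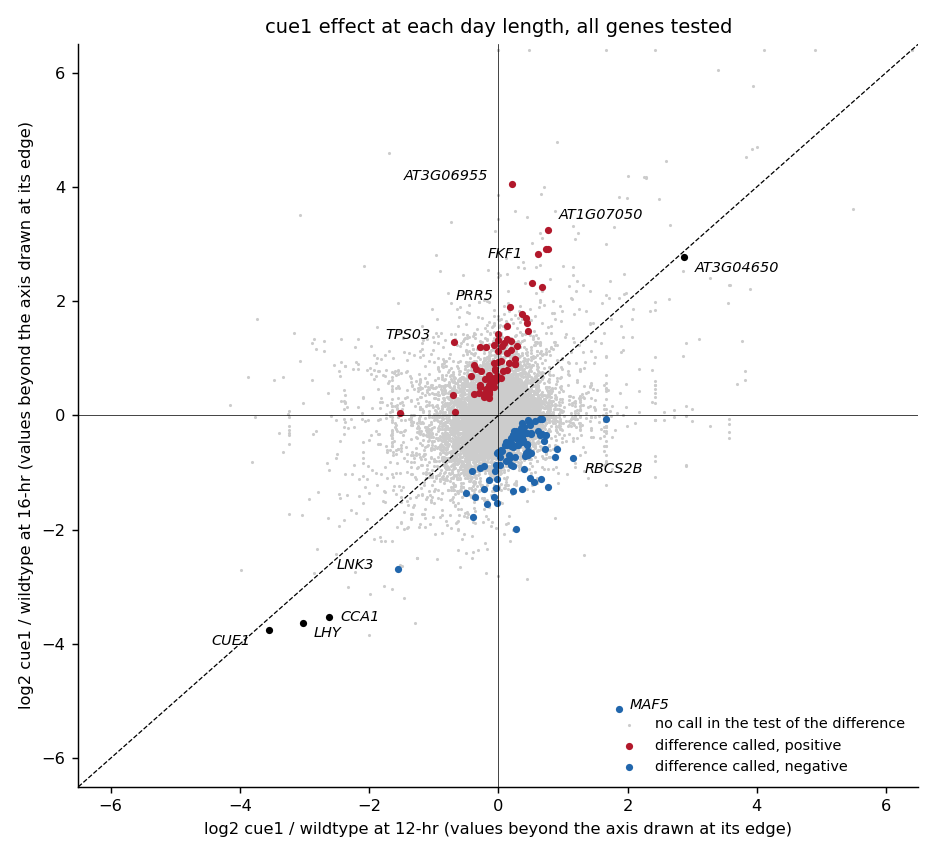
Each point is 1 of the 21163 genes tested, with the log2 fold change of cue1 over wildtype at 12-hr on the x axis and at 16-hr on the y axis. The dashed line marks equal effects, red and blue points are the 74 genes with a more positive and the 94 with a more negative effect at 16-hr, values beyond the axes are drawn at the edge, and black points mark CUE1, CCA1 and LHY, low at both day lengths, and AT3G04650, high at both.

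Of the 10 largest positive differences among genes reaching a group mean of 5 CPM, 4 were clock genes. Of 29 clock genes tested, 5 had a more positive effect (FKF1, PRR5, PRR3, COR27 and AT4G33980, which the clock list holds) and 2 a more negative one (LNK3 and RVE4), against 0.794% of all genes. FKF1 rose to a mean of 88.0 CPM in cue1 16-hr against 12.5 in wildtype 16-hr, and rose less in 12-hr days. CCA1 and LHY fell at both day lengths.

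FKF1 (AT1G68050), a blue-light receptor and F-box protein of photoperiodic flowering, had 93.1, 85.1 and 85.9 CPM in cue1 16-hr against 14.3, 12.3 and 10.9 in wildtype 16-hr, and 137, 137 and 143 in cue1 12-hr against 98.4, 94.5 and 78.9 in wildtype 12-hr. The low group was wildtype 16-hr, and the cue1 libraries lay above their wild type at both day lengths. Its log2 fold change was 2.82 at 16-hr (adjusted p = 5.36e-08) and 0.62 at 12-hr (adjusted p = 0.0128), a difference of 2.2 ± 0.15 (SE, edgeR adjusted p = 3.41e-05).

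COR27 (AT5G42900), a cold- and light-regulated repressor of clock genes, had 22.8, 22.9 and 25.1 CPM in cue1 16-hr against 2.21, 3.53 and 3.67 in wildtype 16-hr, and 66.9, 61.0 and 60.9 in cue1 12-hr against 48.1, 33.3 and 30.3 in wildtype 12-hr. AT4G33980, which the annotation describes as an uncharacterized protein, had 20.0, 19.9 and 20.2 CPM in cue1 16-hr against 2.89, 3.16 and 2.02 in wildtype 16-hr, and 58.0, 56.0 and 60.2 in cue1 12-hr against 43.4, 31.7 and 28.9 in wildtype 12-hr. The groups of these 2 genes were in the same order, with wildtype 16-hr lowest and cue1 12-hr highest, and no cue1 library overlapped its wild type. The differences were 2.15 ± 0.26 for COR27 (edgeR adjusted p = 0.0033) and 2.17 ± 0.23 for AT4G33980 (adjusted p = 0.00138), with log2 fold changes of 2.91 for each at 16-hr, and 0.76 and 0.74 at 12-hr.

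PRR5 (AT5G24470), a pseudo-response regulator that represses CCA1 and LHY, had 131, 132 and 128 CPM in cue1 16-hr against 34.9, 39.1 and 30.7 in wildtype 16-hr, and 89.5, 103 and 127 in cue1 12-hr against 90.2, 104 and 88.4 in wildtype 12-hr. The 16-hr groups were far apart, while the 12-hr groups overlapped. The log2 fold change of PRR5 was 1.90 at 16-hr and 0.18 at 12-hr (adjusted p = 0.556), and the difference 1.72 ± 0.18 (adjusted p = 0.00127). PRR3 (AT5G60100), of the same family, had 52.8, 47.6 and 45.5 CPM in cue1 16-hr against 14.4, 14.3 and 16.1 in wildtype 16-hr, and 107, 102 and 104 in cue1 12-hr against 83.8, 78.1 and 72.5 in wildtype 12-hr, a difference of 1.29 ± 0.11 (adjusted p = 0.000495).

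The differences of FKF1, COR27, AT4G33980, PRR5 and PRR3 were called in all 12 fits that left out a library, but their smaller 12-hr effects were not firm. The 12-hr call of FKF1 was lost without cue1 12-hr replicate 1 (adjusted p = 0.0552) or wildtype 12-hr replicate 3 (0.05), and those of PRR3 and AT4G33980 without each of cue1 12-hr replicates 1 and 3 and wildtype 12-hr replicates 2 and 3 (0.0558 to 0.115 for PRR3 and 0.061 to 0.096 for AT4G33980), for PRR3 also without cue1 12-hr replicate 2 (0.0546). That of COR27 (adjusted p = 0.0428) held only without wildtype 12-hr replicate 1 or wildtype 16-hr replicates 1 or 3, and reached 0.158 otherwise.

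CCA1 and LHY, the morning Myb factors, were the clock genes that fell most in cue1. CCA1 (AT2G46830) had 13.1, 8.55 and 13.1 CPM in cue1 16-hr against 130, 133 and 140 in wildtype 16-hr, and 4.62, 6.98 and 7.43 in cue1 12-hr against 30.8, 44.5 and 41.8 in wildtype 12-hr. LHY (AT1G01060) had 3.38, 2.59 and 4.09 CPM in cue1 16-hr against 35.3, 39.2 and 50.6 in wildtype 16-hr, and 0.827, 0.752 and 0.909 in cue1 12-hr against 7.02, 6.4 and 6.79 in wildtype 12-hr. Every cue1 library lay below every wildtype library of its day length. The log2 fold change of CCA1 was -3.53 at 16-hr and -2.62 at 12-hr, a difference of -0.91 ± 0.27 that was not called by edgeR (adjusted p = 0.14) and was by DESeq2 (adjusted p = 0.0303). That of LHY was -3.63 at 16-hr and -3.02 at 12-hr, and its difference of -0.61 ± 0.26 was not called (edgeR adjusted p = 0.287, 95% interval -1.18 to -0.037).

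LNK3 (AT3G12320), of a family of coactivators that work with the RVE proteins, had 10.4, 7.82 and 8.89 CPM in cue1 16-hr against 56.3, 56.3 and 61.9 in wildtype 16-hr, and 5.24, 6.46 and 6.27 in cue1 12-hr against 15.2, 21.1 and 16.5 in wildtype 12-hr. It fell at both day lengths, by more at 16-hr, with log2 fold changes of -2.68 at 16-hr and -1.55 at 12-hr and a difference of -1.13 ± 0.19 (adjusted p = 0.0244). RVE4 (AT5G02840), a Myb-like activator of evening genes, had 26.2, 24.6 and 27.8 CPM in cue1 16-hr against 50.9, 44.2 and 49.8 in wildtype 16-hr, and 32.9, 31.8 and 30.8 in cue1 12-hr against 32.8, 41.0 and 38.6 in wildtype 12-hr, a difference of -0.65 ± 0.13 (adjusted p = 0.0445). The call of LNK3 held only without cue1 16-hr replicates 1 or 2, cue1 12-hr replicate 1 or wildtype 12-hr replicate 2 (0.05 to 0.0694 otherwise), and that of RVE4 only without wildtype 12-hr replicate 2 (0.0541 to 0.108 otherwise).

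At 16-hr, 12 of the 29 genes rose and 11 fell in cue1, against 2.71% and 3.1% of all genes. At 12-hr 11 rose and 8 fell, against 0.851% and 0.718%. The next 4 genes were chosen after their values were seen. TOC1 (AT5G61380), an evening repressor of CCA1, had 93.4, 106 and 102 CPM in cue1 16-hr against 39.4, 34.1 and 29.0 in wildtype 16-hr, and 203, 183 and 199 in cue1 12-hr against 125, 105 and 99.3 in wildtype 12-hr. GI (AT1G22770), a partner of FKF1, had 234, 228 and 224 CPM in cue1 16-hr against 135, 144 and 112 in wildtype 16-hr, and 267, 268 and 279 in cue1 12-hr against 250, 246 and 215 in wildtype 12-hr. In each, wildtype 16-hr was the low group and no groups of one day length overlapped, but the differences of 0.73 ± 0.16 for TOC1 and 0.62 ± 0.14 for GI were not called by edgeR (adjusted p = 0.0644 each), and were by DESeq2 (0.00372 and 0.0014). PRR9 (AT2G46790), a repressor of the morning phase, fell by 2.16 at 16-hr and by 1.92 at 12-hr on the log2 scale, and JMJD5 (AT3G20810), a clock-associated jumonji protein, rose by 1.61 at 16-hr and 1.47 at 12-hr. The median difference over the 29 was -0.086, against 0.022 over all genes tested.

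**Figure D2:**
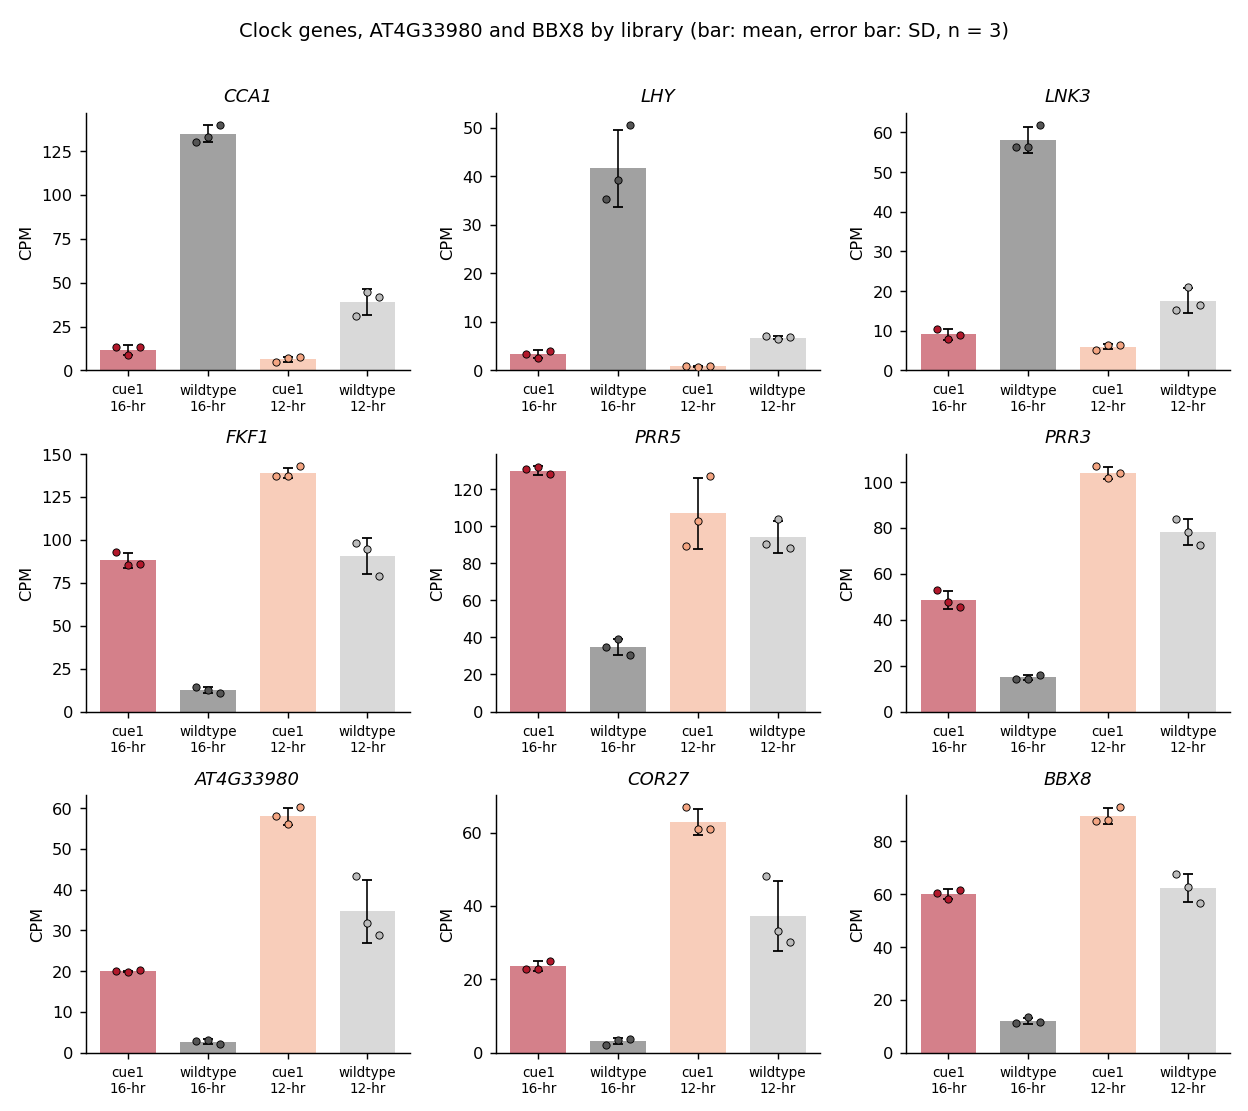
CPM of 9 genes, with bars at the mean of 3 libraries, error bars of 1 SD and a point per library, in the order cue1 16-hr, wildtype 16-hr, cue1 12-hr, wildtype 12-hr. CCA1, LHY and LNK3 are high in wildtype 16-hr, and FKF1, COR27, AT4G33980, PRR3, PRR5 and BBX8 are low there.

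Beside the clock list, other genes had the same shape. AT1G07050, annotated as a CCT motif family protein, had 54.3, 66.9 and 61.4 CPM in cue1 16-hr against 5.25, 7.24 and 6.83 in wildtype 16-hr, and 99.8, 99.6 and 98.8 in cue1 12-hr against 62.1, 58.7 and 54.6 in wildtype 12-hr, a difference of 2.48 ± 0.15 (adjusted p = 3.41e-05). BBX8 (AT5G48250), a B-box zinc finger protein, had 60.4, 58.2 and 61.6 CPM in cue1 16-hr against 11.1, 13.5 and 11.5 in wildtype 16-hr, and 87.8, 88.0 and 92.9 in cue1 12-hr against 67.6, 62.6 and 56.8 in wildtype 12-hr, a difference of 1.80 ± 0.12 (adjusted p = 3.41e-05). AT1G17665, annotated as a CA-responsive protein, differed by 1.58 ± 0.15 (adjusted p = 0.000978). In these genes wildtype 16-hr was the low group and no cue1 library overlapped its wild type.

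BBX13 (AT1G28050), another B-box protein, and GRP7 (AT2G21660), a clock-controlled RNA-binding protein, were chosen after their values were seen. GRP7 had 2990, 2460 and 2620 CPM in cue1 16-hr against 1110, 1140 and 1030 in wildtype 16-hr, and 4480, 4330 and 3700 in cue1 12-hr against 3680, 3880 and 3450 in wildtype 12-hr. The 16-hr groups of GRP7 were separate and the 12-hr groups overlapped, and its difference was 1.11 ± 0.19 (adjusted p = 0.0209). BBX13 differed by 0.96 ± 0.12 (adjusted p = 0.00528), with log2 fold changes of 1.15 at 16-hr and 0.19 at 12-hr. The call of GRP7 was lost without each of cue1 16-hr replicate 1, wildtype 16-hr replicates 1, 2 and 3, cue1 12-hr replicates 2 and 3 and wildtype 12-hr replicate 1 (adjusted p of 0.0504 to 0.0694).

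The remaining genes of the 10 largest positive differences had other shapes. AT3G06955, a long noncoding RNA, had 5.58, 4.45 and 5.84 CPM in cue1 16-hr against 0.263, 0.365 and 0.321 in wildtype 16-hr, and at most 0.245 CPM in any 12-hr library, a difference of 3.84 ± 0.56 (adjusted p = 0.0105, and 0.0629 without wildtype 12-hr replicate 1). It reached a group mean of 5 CPM in cue1 16-hr alone, and its 12-hr effect is a ratio of values near the floor. TPS03 (AT4G16740), a terpene synthase, had 26.0, 18.7 and 23.4 CPM in cue1 16-hr against 8.93, 9.67 and 9.54 in wildtype 16-hr, and 31.1, 35.5 and 47.4 in cue1 12-hr against 41.4, 93.2 and 49.0 in wildtype 12-hr, where replicate 2 stood apart. Its difference of 1.97 ± 0.38 (adjusted p = 0.0423) was called only without cue1 16-hr replicate 2 or wildtype 12-hr replicates 1 or 2, and had an adjusted p of 0.0504 to 0.117 otherwise. AT5G03585, a long noncoding RNA of which a part of 0.79 overlaps exons of the opposite strand, differed by 1.48 ± 0.25 (adjusted p = 0.0239). Means of AT5G03585 were 28.2 CPM in cue1 16-hr and 12.3 in wildtype 16-hr. At 12-hr they were near the floor, 0.92 in cue1 and 1.12 in wildtype. Its call was lost without cue1 16-hr replicate 3 (0.0598), wildtype 16-hr replicate 1 (0.05), cue1 12-hr replicates 2 (0.0687) or 3 (0.0684), or wildtype 12-hr replicate 1 (0.083).

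The evening element, AAAATATCT on either strand, was counted in the 300 bases around the RefSeq start of each protein-coding gene, 250 before it and 50 after. It was present in 19 of 72 promoters of genes with a more positive effect at 16-hr (26.4%), in 2 of 90 of genes with a more negative effect (2.22%, PGR3 and MAF5), and in 608 of 19864 promoters of all protein-coding genes tested (3.06%). Among the 22 positive genes that stayed called in all 12 fits it was present in 9 (40.9%), among the 20 negative ones in 1 (5.0%). The related CCA1-binding site AAAAATCT was in 9 of 72 (12.5%), 7 of 90 (7.78%) and 1621 of 19864 (8.16%) in that order, and the G-box CACGTG, a site of light-regulated factors, in 12 (16.7%), 8 (8.89%) and 1756 (8.84%). The evening element and the CCA1-binding site do not contain each other, and G-boxes read the same on both strands. The shares are descriptions, with no test, and a match is not evidence of binding.

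The promoters of 4 genes with a more positive effect at 16-hr are given because they hold the evening element, and that of LNK3, with a more negative effect, because it holds none. They are 300 bases of the TAIR10.1 genome with RefSeq gene starts, 5′ to 3′ on the gene's strand, at chr1:25508389-25508688 for FKF1 (+), chr5:19563783-19564082 for BBX8 (-), chr5:8358497-8358796 for PRR5 (-), chr4:16285180-16285479 for AT4G33980 (-) and chr3:3923265-3923564 for LNK3 (+). Capitals mark the evening element, AAAATATCT or its complement AGATATTTT, the CCA1-binding site, AAAAATCT or AGATTTTT, and the G-box.
FKF1: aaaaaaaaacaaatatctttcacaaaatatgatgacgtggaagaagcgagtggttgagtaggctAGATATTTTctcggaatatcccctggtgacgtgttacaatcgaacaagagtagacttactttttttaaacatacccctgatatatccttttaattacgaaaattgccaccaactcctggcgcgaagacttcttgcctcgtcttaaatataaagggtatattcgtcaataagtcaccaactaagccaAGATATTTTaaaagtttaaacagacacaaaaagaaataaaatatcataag
BBX8: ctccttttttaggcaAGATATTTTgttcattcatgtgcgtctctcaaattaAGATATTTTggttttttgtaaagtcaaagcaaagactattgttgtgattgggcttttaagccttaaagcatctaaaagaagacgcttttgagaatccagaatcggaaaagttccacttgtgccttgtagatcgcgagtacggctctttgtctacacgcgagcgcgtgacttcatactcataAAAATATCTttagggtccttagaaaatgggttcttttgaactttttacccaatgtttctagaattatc
PRR5: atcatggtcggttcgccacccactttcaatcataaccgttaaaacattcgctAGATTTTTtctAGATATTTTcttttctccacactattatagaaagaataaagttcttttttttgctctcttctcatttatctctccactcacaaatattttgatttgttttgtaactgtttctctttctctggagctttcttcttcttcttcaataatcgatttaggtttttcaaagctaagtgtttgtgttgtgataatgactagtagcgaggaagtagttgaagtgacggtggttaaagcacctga
AT4G33980: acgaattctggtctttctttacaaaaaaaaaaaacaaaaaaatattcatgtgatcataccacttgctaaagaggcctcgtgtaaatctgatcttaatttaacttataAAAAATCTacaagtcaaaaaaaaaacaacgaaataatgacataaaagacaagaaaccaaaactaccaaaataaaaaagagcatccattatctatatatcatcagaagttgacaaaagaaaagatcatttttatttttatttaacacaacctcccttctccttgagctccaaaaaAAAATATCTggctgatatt
LNK3: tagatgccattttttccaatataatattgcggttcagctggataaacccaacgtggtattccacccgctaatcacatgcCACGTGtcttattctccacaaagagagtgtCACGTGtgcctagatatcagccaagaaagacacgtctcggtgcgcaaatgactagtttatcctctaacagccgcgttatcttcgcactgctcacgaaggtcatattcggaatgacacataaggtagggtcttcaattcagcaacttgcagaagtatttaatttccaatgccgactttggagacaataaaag
BBX8 holds 3 evening elements, FKF1 holds 2, and PRR5 and AT4G33980 hold 1 each beside 1 CCA1-binding site. LNK3 holds 2 G-boxes. The 5 promoters do not stand for all named genes. PRR3, AT1G07050 and AT1G17665, also with a more positive effect at 16-hr, hold no evening element, while PRR9 and COL2, which fell in cue1 at both day lengths, hold 1 each. Absence of a match says only that these letters are not in this window.

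**Figure D3:**
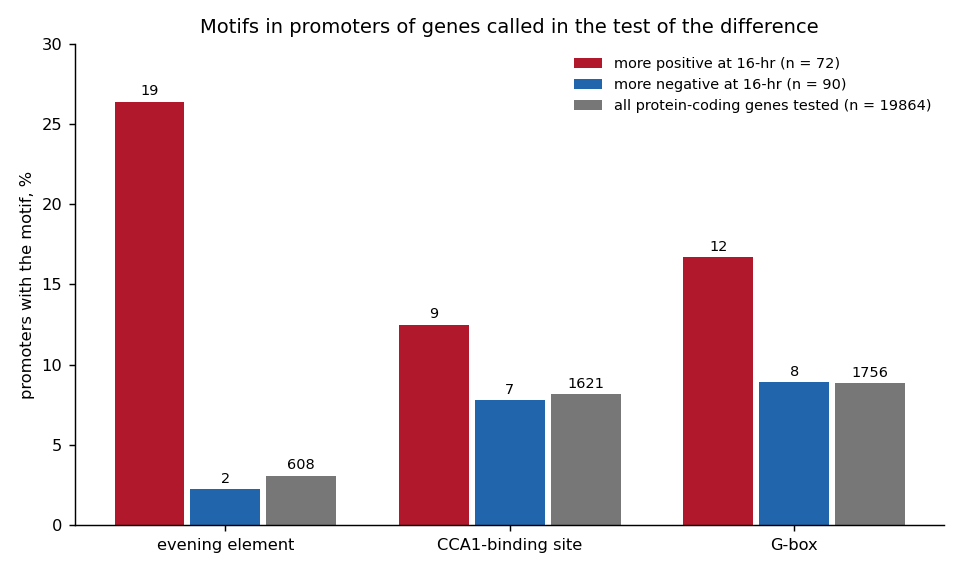
Percent of promoters that hold each of the 3 motifs, for genes with a more positive effect at 16-hr (n = 72), with a more negative effect (n = 90) and for all protein-coding genes tested (n = 19864), with the number of promoters above each bar. The evening element is in 26.4% of the positive promoters, and in 2.22% and 3.06% of the other groups.

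FRO6 (AT5G49730), a ferric-chelate reductase and 1 of the 10 genes with the lowest differences, had 109, 119 and 84.2 CPM in cue1 16-hr against 238, 252 and 290 in wildtype 16-hr, and 125, 135 and 141 in cue1 12-hr against 91.8, 126 and 125 in wildtype 12-hr. Its log2 fold change was -1.32 at 16-hr and 0.23 at 12-hr, a difference of -1.55 ± 0.21 (adjusted p = 0.0076). FRO7 (AT5G49740), the chloroplast ferric reductase next to it on the chromosome, was chosen after its values were seen: 77.9, 75.2 and 73.2 CPM in cue1 16-hr against 172, 192 and 191 in wildtype 16-hr, and 83.0, 93.7 and 102 in cue1 12-hr against 91.6, 125 and 108 in wildtype 12-hr. The 16-hr groups of both were separate and the 12-hr groups overlapped, and FRO7 differed by -1.08 ± 0.16 (adjusted p = 0.0103).

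SPA3 (AT3G15354), a partner of the COP1 ubiquitin ligase in light signalling, was the single call among 34 light signalling genes. It had 36.2, 35.5 and 37.5 CPM in cue1 16-hr against 57.2, 59.4 and 61.0 in wildtype 16-hr, and 53.6, 54.4 and 52.5 in cue1 12-hr against 44.3, 52.3 and 46.1 in wildtype 12-hr. SPA3 was lower than wild type at 16-hr (log2 fold change -0.70) and 0.17 above it at 12-hr, a difference of -0.87 ± 0.10 (adjusted p = 0.00243). Of the 34 genes, 17 fell and 1 rose in cue1 at 16-hr, 7 fell and 0 rose at 12-hr, against 3.1% lower at 16-hr and 0.718% lower at 12-hr among all genes. The median difference was -0.31, with 4 of the 34 above 0 and 8 at an unadjusted p under 0.05 (15.7% of all genes). BBX25 and RUP2, both repressors of light responses, were chosen after their values were seen and were not called for the difference. RUP2 (AT5G23730) had 2.47, 2.48 and 2.79 CPM in cue1 16-hr against 8.14, 8.88 and 8.99 in wildtype 16-hr, and 2.42, 3.07 and 2.51 in cue1 12-hr against 3.97, 5.08 and 4.4 in wildtype 12-hr. BBX25 (AT2G31380) had 14.3, 11.6 and 12.4 CPM in cue1 16-hr against 40.5, 46.5 and 45.5 in wildtype 16-hr, and 4.78, 5.02 and 5.61 in cue1 12-hr against 7.83, 12.6 and 10.5 in wildtype 12-hr. Both were below wild type in all cue1 libraries, and the differences of -1.0 ± 0.21 for RUP2 and -0.78 ± 0.21 for BBX25 had adjusted p values of 0.0512 and 0.114, against 0.0318 and 0.0364 without wildtype 12-hr replicate 2.

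Phototropism and chloroplast movement genes were chosen after their values were seen. RPT2 (AT2G30520), a phototropin signalling protein, had 74.4, 83.2 and 80.0 CPM in cue1 16-hr against 186, 168 and 167 in wildtype 16-hr, and 79.6, 77.3 and 85.3 in cue1 12-hr against 85.1, 92.4 and 89.6 in wildtype 12-hr, a difference of -0.99 ± 0.10 (adjusted p = 0.00138). JAC1 (AT1G75100), needed for the chloroplast accumulation response, had 26.8, 27.7 and 25.3 CPM in cue1 16-hr against 71.9, 67.6 and 64.4 in wildtype 16-hr, and 18.0, 21.6 and 23.3 in cue1 12-hr against 26.1, 33.5 and 29.3 in wildtype 12-hr, a difference of -0.85 ± 0.15 (adjusted p = 0.0313). Both were highest in wildtype 16-hr. PMI1, PMI2 and PMI15, named for impaired plastid movement, differed by -0.62, -0.83 and -0.58 (adjusted p = 0.0453, 0.0323 and 0.0428), and the annotation has PMI15 as a pseudogene. The call of RPT2 held in all 12 fits that left out a library, that of JAC1 only without cue1 16-hr replicate 2, cue1 12-hr replicate 1 or wildtype 12-hr replicate 2 (0.0518 to 0.0903 otherwise), and those of the PMI genes only without cue1 16-hr replicate 2 or wildtype 12-hr replicate 2 (0.0555 to 0.132 otherwise).

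ATSPS4F (AT4G10120), a sucrose-phosphate synthase chosen after its values were seen, had 97.6, 86.4 and 94.3 CPM in cue1 16-hr against 141, 168 and 145 in wildtype 16-hr, and 136, 168 and 148 in cue1 12-hr against 108, 118 and 102 in wildtype 12-hr. It was lower than wild type at 16-hr (-0.70) and higher at 12-hr (0.46), with no overlap at either, and differed by -1.17 ± 0.14 (adjusted p = 0.00365). CSLB04 (AT2G32540), a cellulose synthase-like protein, had 6.58, 7.77 and 5.79 CPM in cue1 16-hr against 17.0, 17.6 and 14.3 in wildtype 16-hr, and 8.3, 9.56 and 9.31 in cue1 12-hr against 7.71, 6.81 and 6.47 in wildtype 12-hr, a difference of -1.65 ± 0.19 (adjusted p = 0.00214). BXL1 (AT5G49360), a beta-xylosidase, differed by -1.60 ± 0.31 (adjusted p = 0.0432), and TPS8 (AT1G70290), a trehalose-phosphate synthase-like protein and the single call among 22 dark and sugar starvation genes, by -0.73 ± 0.15 (adjusted p = 0.0465). The call of BXL1 held only without cue1 16-hr replicate 2 or wildtype 12-hr replicates 1 or 2 (0.0653 to 0.12 otherwise), and that of TPS8 only without cue1 16-hr replicate 2 or cue1 12-hr replicate 2 (0.0544 to 0.114 otherwise). The 12-hr call of ATSPS4F (adjusted p = 0.0446) held only without cue1 16-hr replicates 2 or 3 and reached 0.155 otherwise.

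**Figure D4:**
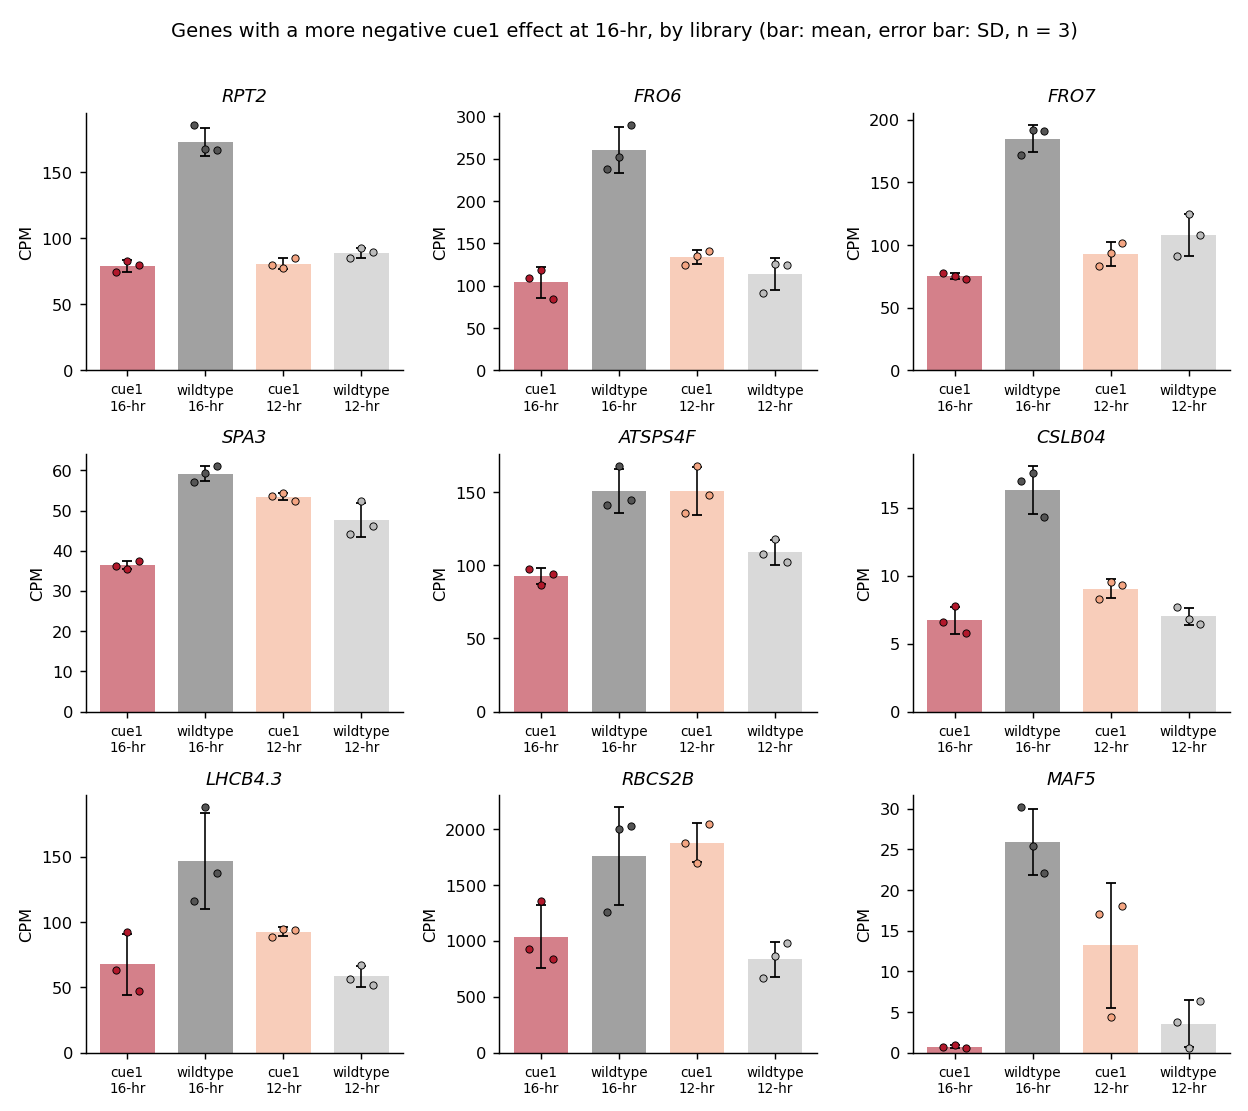
CPM of 9 genes with a more negative cue1 effect at 16-hr, with bars at the mean of 3 libraries, error bars of 1 SD and a point per library, in the order cue1 16-hr, wildtype 16-hr, cue1 12-hr, wildtype 12-hr. FRO6, FRO7, RPT2, CSLB04, LHCB4.3 and MAF5 are highest in wildtype 16-hr.

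MAF5 (AT5G65080), a MADS-box repressor of flowering related to FLC, had the lowest difference of the 94 genes. It had 0.692, 0.957 and 0.584 CPM in cue1 16-hr against 30.2, 25.4 and 22.1 in wildtype 16-hr, and 17.1, 4.36 and 18.0 in cue1 12-hr against 3.74, 0.627 and 6.38 in wildtype 12-hr. The 16-hr groups were far apart, while the 12-hr groups overlapped and spread widely. The log2 fold change was -5.13 at 16-hr (adjusted p = 0.00244) and 1.87 at 12-hr (adjusted p = 0.155), a difference of -7.00 ± 0.98 (adjusted p = 0.00861), with a value of -7.71 to -6.51 on leaving out any one library. With limma voom the adjusted p was 0.0625. MAF5 was the single call among 27 flowering time genes tested, of which 7 fell and 0 rose in cue1 at 16-hr, and 3 fell and 0 rose at 12-hr (all genes: 3.1% and 0.718% lower). COL2 (AT3G02380), a relative of the flowering regulator CO chosen after its values were seen, of which a part of 0.318 overlaps exons of the opposite strand, fell by 2.74 at 16-hr and by 2.22 at 12-hr on the log2 scale. CDF2 (AT5G39660), a repressor of CO and also chosen so, had 4.54, 3.77 and 2.7 CPM in cue1 16-hr against 13.4, 11.7 and 12.2 in wildtype 16-hr, and 5.17, 4.12 and 3.35 in cue1 12-hr against 6.3, 6.27 and 5.67 in wildtype 12-hr. Its difference of -1.23 ± 0.27 was not called by edgeR (adjusted p = 0.0573, and 0.0499 without cue1 16-hr replicate 1) and was by DESeq2 (0.00121).

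Genes of the photosynthetic apparatus lay below 0 together but seldom passed the test. Of 34 photosystem core and Rubisco genes, all 34 had a negative difference, with a median of -0.55 against 0.022 over all genes, a median effect of -0.46 at 16-hr and 0.16 at 12-hr, 20 with an unadjusted p under 0.05 (15.7% of all genes), and 1 call. Of 22 light-harvesting antenna genes, all 22 had a negative difference, with a median of -0.54, 8 with an unadjusted p under 0.05 and 1 call. Their summed level was 48500 to 69000 CPM in cue1 16-hr against 72100 to 86100 in wildtype 16-hr, and 63600 to 76600 in cue1 12-hr against 47400 to 68300 in wildtype 12-hr, for the photosystem list. That list did not overlap between the groups at 16-hr and overlapped at 12-hr. Members of a list share libraries and can move together, so these counts are descriptions. Over 21 other ways of fitting, the list medians ran from -0.72 to -0.45 for the photosystem list and from -0.68 to -0.40 for the antenna list.

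The 2 calls were RBCS2B (AT5G38420), a Rubisco small subunit, and LHCB4.3 (AT2G40100), a minor antenna protein. RBCS2B had 932, 1360 and 837 CPM in cue1 16-hr against 1260, 2000 and 2030 in wildtype 16-hr, and 1880, 1700 and 2050 in cue1 12-hr against 669, 866 and 979 in wildtype 12-hr. The groups overlapped at 16-hr, and cue1 was above wild type at 12-hr. The difference of RBCS2B was -1.92 ± 0.32 (adjusted p = 0.0209), with log2 fold changes of -0.75 at 16-hr (adjusted p = 0.0751) and 1.16 at 12-hr (adjusted p = 0.0309). RBCS2B has near-identical copies beside it on the chromosome, so its counts depend on how shared reads were assigned. LHCB4.3 had 63.2, 92.8 and 47.1 CPM in cue1 16-hr against 116, 188 and 138 in wildtype 16-hr, and 88.6, 95 and 93.8 in cue1 12-hr against 56.3, 67.4 and 52.0 in wildtype 12-hr, a difference of -1.78 ± 0.31 (adjusted p = 0.0265). Replicate 2 was the highest 16-hr library of LHCB4.3 in each genotype, and cue1 did not overlap wildtype of the same day length. The log2 fold change of LHCB4.3 was -1.12 at 16-hr (edgeR adjusted p = 0.0129), while that of 0.66 at 12-hr was not called (0.17). The call of RBCS2B was lost without cue1 16-hr replicates 1 or 3, wildtype 16-hr replicates 2 or 3, cue1 12-hr replicates 1 or 3 or wildtype 12-hr replicate 1 (0.0534 to 0.0729), and its 12-hr call without any single 12-hr library or wildtype 16-hr replicate 2 (0.051 to 0.109). The call of LHCB4.3 held only without cue1 16-hr replicates 2 or 3, wildtype 16-hr replicate 1 or wildtype 12-hr replicate 2 (0.0537 to 0.0821 otherwise).

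Other plastid genes were chosen after their values were seen. HCF173 (AT1G16720), needed for translation of the photosystem II protein D1, had 100, 138 and 88.4 CPM in cue1 16-hr against 172, 168 and 176 in wildtype 16-hr, and 149, 152 and 167 in cue1 12-hr against 111, 107 and 111 in wildtype 12-hr, a difference of -1.17 ± 0.18 (adjusted p = 0.0171). The groups were separate at both day lengths, lower than wild type in cue1 16-hr and above it in cue1 12-hr. The log2 fold change of HCF173 was -0.66 at 16-hr (edgeR adjusted p = 0.0132), while that of 0.51 at 12-hr was not called (0.0828). The long noncoding RNA AT1G05253 lies inside HCF173 on the other strand and differed by -1.59 ± 0.26 (adjusted p = 0.0191), and reads of the pair may not be told apart. PGR3, a plastid RNA-binding protein, differed by -0.55 (adjusted p = 0.0452) and CP12-2, a regulator of Calvin cycle enzymes, by -0.71 (adjusted p = 0.0318). Neither was called at 16-hr, where the groups overlapped and the log2 fold changes were -0.086 and -0.057 in that order. Both were higher in cue1 at 12-hr, by 0.46 and 0.65. The call of HCF173 was lost without wildtype 16-hr replicate 2 (0.054) or wildtype 12-hr replicate 1 (0.0523), and that of AT1G05253 without wildtype 16-hr replicates 1 (0.05), 2 (0.0616) or 3 (0.0504) or cue1 12-hr replicate 1 (0.0574). Those of PGR3 and CP12-2 held only without cue1 16-hr replicate 2 or wildtype 12-hr replicate 2 (0.0572 to 0.122 otherwise).

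Unnamed loci completed the 10 lowest differences. AT3G02370, annotated as a tRNA-splicing endonuclease subunit, had 7.23, 6.13 and 5.35 CPM in cue1 16-hr against 20.3, 27.4 and 26.1 in wildtype 16-hr, and 7.96, 8.03 and 8.87 in cue1 12-hr against 6.56, 6.96 and 6.91 in wildtype 12-hr, a difference of -2.26 ± 0.19 (adjusted p = 0.000329). It was high in wildtype 16-hr alone, and a part of 0.127 of its exons overlaps exons of the opposite strand. Its end overlaps COL2, which lies on the other strand and was also highest in wildtype 16-hr. Mean levels of COL2 were 7.47 CPM in cue1 16-hr, 50.3 in wildtype 16-hr, 1.51 in cue1 12-hr and 7.06 in wildtype 12-hr. Reads of the pair may not be told apart. AT4G33666, of which a part of 0.482 overlaps exons of the opposite strand, differed by -2.01 ± 0.23 (adjusted p = 0.00248), and AT4G26288, with a part of 0.776, by -1.74 ± 0.28 (adjusted p = 0.0191). AT4G26288 was not called at 16-hr, with means of 5.7 CPM in cue1 and 5.98 in wildtype (log2 fold change -0.069). At 12-hr it was near the floor, with means of 1.37 CPM in cue1 and 0.424 in wildtype. The call of AT4G26288 was lost without wildtype 16-hr replicates 2 (0.0693) or 3 (0.0504) or cue1 12-hr replicates 1 (0.0573) or 3 (0.0504).

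None of 17 plastid translocator and phosphoenolpyruvate supply genes, 29 shikimate and aromatic amino acid genes and 35 phenylpropanoid and flavonoid genes was called by edgeR, with 2, 5 and 9 at an unadjusted p under 0.05 in that order, 1, 1 and 2 calls by DESeq2 and 0 by limma voom in each list. Among all 21163 genes, 15.7% had an unadjusted p under 0.05 and edgeR called 0.794%, while DESeq2 called 925 genes and limma voom 145. The counts of the lists were not tested against this background. Their median differences were -0.048, 0.024 and 0.095. Of the phenylpropanoid genes, 5 of 35 fell at 16-hr and 6 of 35 at 12-hr, with 0 higher at either (all genes: 3.1% and 0.718% lower). PAL2 (AT3G53260), phenylalanine ammonia-lyase, at the entry of the pathway and chosen after its values were seen, had 68.5, 72.0 and 64.3 CPM in cue1 16-hr against 116, 133 and 140 in wildtype 16-hr, and 47.0, 47.5 and 47.1 in cue1 12-hr against 61.2, 76.2 and 77.9 in wildtype 12-hr. It was lower in cue1 at both, with log2 fold changes of -0.93 at 16-hr and -0.60 at 12-hr, and the 12-hr call was lost without cue1 12-hr replicates 1 (0.0726) or 2 (0.0525) or wildtype 12-hr replicate 3 (0.0623).

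Among 36 starch genes, 4 rose and 4 fell in cue1 at 16-hr (all genes: 2.71% and 3.1%) and 2 fell at 12-hr (all genes: 0.718%). None was called for the difference by edgeR, and 15 had an unadjusted p under 0.05 (15.7% of all genes). DESeq2 called 3 of them, against 925 of all 21163 genes, and voom 0, against 145. GBSS1 and BAM9 were chosen after their values were seen. GBSS1 (AT1G32900), the granule-bound starch synthase, had 63.4, 35.6 and 64.8 CPM in cue1 16-hr against 141, 138 and 114 in wildtype 16-hr, and 13.9, 19.4 and 21.1 in cue1 12-hr against 59.2, 97.2 and 70.4 in wildtype 12-hr. BAM9 (AT5G18670), of the beta-amylase family, had 10.3, 6.36 and 6.87 CPM in cue1 16-hr against 26.4, 29.6 and 33.1 in wildtype 16-hr, and 6.61, 5.02 and 4.48 in cue1 12-hr against 8.43, 7.78 and 11.8 in wildtype 12-hr. GBSS1 fell at both day lengths, with a difference of 0.80 ± 0.34 (adjusted p = 0.274), and BAM9 fell at 16-hr, with a difference of -1.12 ± 0.30 that was not called by edgeR (adjusted p = 0.107) and was by DESeq2 (0.0158).

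Defence hormone lists had medians above 0 and no call. The 27 salicylic acid genes had a median difference of 1.04, with 26 above 0, a median effect of 0.84 at 16-hr and -0.11 at 12-hr, and 0 calls by edgeR, DESeq2 and voom (7 at an unadjusted p under 0.05, against 15.7% of all genes). Summed over the list, cue1 16-hr libraries had 1130 to 3160 CPM against 975 to 1360 in wildtype 16-hr, and cue1 12-hr 768 to 1920 against 1220 to 2060 in wildtype 12-hr, so the groups overlapped at both day lengths. WRKY54 (AT2G40750), a transcription factor of salicylic acid responses, was chosen after its values were seen. It was the list's single gene that rose at 16-hr (all genes: 2.71% higher). WRKY54 had 47.6, 72.5 and 77.9 CPM in cue1 16-hr against 33.3, 31.2 and 16.4 in wildtype 16-hr, and 89.4, 82.1 and 91.7 in cue1 12-hr against 65.6, 88.1 and 66.8 in wildtype 12-hr, with overlap at 12-hr alone (log2 fold change 1.29 at 16-hr, adjusted p = 0.0105). Without cue1 16-hr replicate 3 the list's median was 0.47, and without replicate 1 it was 1.32.

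The 26 jasmonate genes had a median difference of 0.31 and 0 calls by edgeR, DESeq2 and voom (3 at an unadjusted p under 0.05, against 15.7% of all genes), with a median effect of -0.21 at 16-hr and -0.69 at 12-hr. At 12-hr 3 of them fell (all genes: 0.718% lower). These were JAZ5 (AT1G17380), a repressor of jasmonate responses, CYP94C1 (AT2G27690), an enzyme of jasmonate breakdown, and ST2A (AT5G07010), a sulfotransferase of hydroxyjasmonate, all chosen after their values were seen. ST2A had 25, 78.4 and 51.5 CPM in cue1 16-hr against 102, 106 and 65.9 in wildtype 16-hr, and 9.37, 10.1 and 19.1 in cue1 12-hr against 154, 27.5 and 61.7 in wildtype 12-hr. The log2 fold changes at 12-hr were -1.09 for JAZ5 (adjusted p = 0.0339), -1.15 for CYP94C1 (0.0213) and -2.66 for ST2A (0.0451). The 12-hr call of JAZ5 held only without one of the 16-hr cue1 libraries, wildtype 16-hr replicate 3 or wildtype 12-hr replicate 1 (0.0544 to 0.0973 otherwise), and that of ST2A only without cue1 16-hr replicates 1 or 2 or wildtype 12-hr replicate 2 (0.0584 to 0.189 otherwise, and 0.0683 with voom). That of CYP94C1 was lost without cue1 12-hr replicates 1 (0.0798) or 2 (0.0655) or wildtype 12-hr replicates 1 (0.0646) or 2 (0.0505).

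Cold and drought genes (27) had a median difference of 0.55, glucosinolate genes (22) of -0.19 and nitrate assimilation genes (10) of -0.13, each with 0 calls by edgeR. At an unadjusted p under 0.05 they had 11, 2 and 3 genes in that order (15.7% of all genes). DESeq2 called 3, 1 and 2 of them, against 925 of all 21163 genes, and voom 0, 0 and 1, against 145. Of the marker lists for other tissues and states, floral organs, stem secondary walls, leaf senescence and cell division, none had a call by edgeR, DESeq2 or voom (0, 0, 1 and 3 genes at an unadjusted p under 0.05, of 9, 11, 7 and 9 tested). Senescence genes summed to 277 to 539 CPM in cue1 16-hr against 243 to 289 in wildtype 16-hr, and 337 to 499 in cue1 12-hr against 327 to 410 in wildtype 12-hr. Stem wall genes summed to 129 to 170 CPM in cue1 16-hr against 189 to 219 in wildtype 16-hr, and 86.7 to 145 in cue1 12-hr against 124 to 162 in wildtype 12-hr, and cell division genes to 180 to 196, 153 to 195, 164 to 196 and 150 to 208 in the order cue1 16-hr, wildtype 16-hr, cue1 12-hr and wildtype 12-hr. The part of these markers and of the floral genes in the differences above was not tested.

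**Figure D5:**
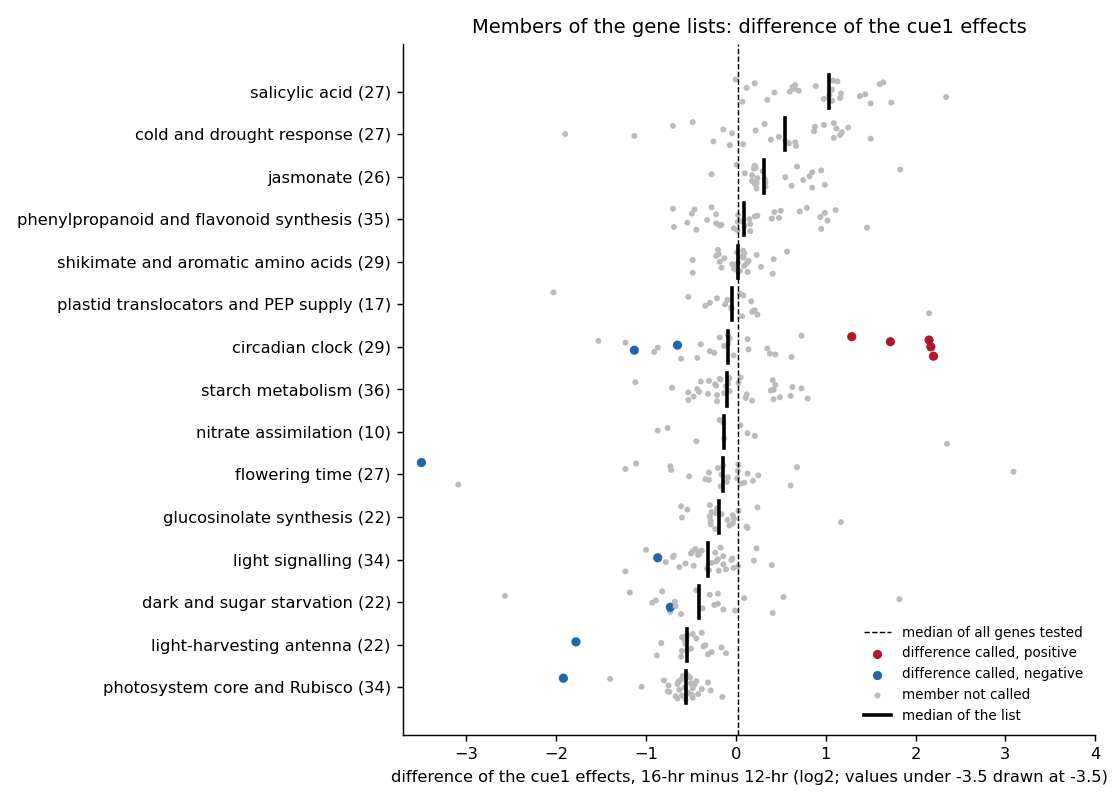
Each point is the log2 difference of the cue1 effect, 16-hr minus 12-hr, of 1 gene of 15 lists, with a black bar at the list's median and a dashed line at the median of all genes tested (0.022), and values under -3.5 drawn at -3.5. The photosystem and antenna lists lie below 0 as a whole, with medians of -0.55 and -0.54, and the salicylic acid list has the highest median, 1.04.

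Ribosome biogenesis genes were chosen after their values were seen. FIB1, a nucleolar methyltransferase, and NSN1, a nucleolar GTP-binding protein, had differences of 0.55 (adjusted p = 0.0428) and 0.66 (adjusted p = 0.0229), and AT2G37990 and AT3G15460 of 0.54 (adjusted p = 0.0452) and 0.78 (adjusted p = 0.0423). The calls of FIB1, AT2G37990 and AT3G15460 held only without cue1 16-hr replicate 2 or wildtype 12-hr replicate 2 (0.0504 to 0.137 otherwise), and that of NSN1 only without cue1 16-hr replicates 1 or 2, wildtype 16-hr replicate 3 or wildtype 12-hr replicate 2 (0.0543 to 0.0813 otherwise).

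Other genes were called in the same direction at both day lengths and were not called for the difference. AT3G04650 had 29.1, 35.1 and 31.3 CPM in cue1 16-hr against 4.46, 5.53 and 4.04 in wildtype 16-hr, and 40.1, 36.4 and 43.5 in cue1 12-hr against 5.67, 5.58 and 5.17 in wildtype 12-hr. Every cue1 library was above every wildtype library, with log2 fold changes of 2.77 at 16-hr and 2.87 at 12-hr and a difference of -0.095 (adjusted p = 0.827). AT3G01345 rose by 4.69 at 16-hr and 4.00 at 12-hr (difference 0.69, adjusted p = 0.776), its 12-hr adjusted p being 0.0516 without wildtype 12-hr replicate 3. MRD1 (AT1G53480), of which a part of 0.898 overlaps exons of the opposite strand, fell by 2.75 at 16-hr and by 2.86 at 12-hr.

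Some values may mix the strands. Of 1516 tested genes with over 0.5 of their exons opposite another gene's exons, wildtype 16-hr exceeded wildtype 12-hr by a median log2 of 2.62, against -0.062 in 14218 genes with no such overlap. The shares called for the difference were 5 of 1516 (0.33%) and 119 of 14218 (0.837%). With genes of an overlap part over 0.1 left out of the fit, there were 173 calls of the difference, 145 of them among the 168. No source used here gives the strand setting of the counts, and the part of that setting in the calls was not tested. Of the 168 calls, 7 positive and 16 negative genes had an overlap part over 0.1.

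Levels in the different wild types of one day length are set side by side, with no test. The 12-hr wild types differ in the share of reads in no feature, 2.58% to 5.78% in wildtype 12-hr and 48.5% to 48.7% in the wild type for sal1. The part of this in their levels was not tested. On a scale set over all 30 libraries, FKF1 averaged 12.9 ± 1.71 CPM in wildtype 16-hr and 0.649 ± 0.336 in the 16-hr wild type for hda6 (SD, n = 3 each), and 94.7 in wildtype 12-hr and 65.9 in the 12-hr wild type for sal1. LHY averaged 43.2 in wildtype 16-hr and 120 in the wild type for hda6, and 7.04 in wildtype 12-hr and 4.5 in the wild type for sal1. GRP7 averaged 1130 in wildtype 16-hr and 173 in the wild type for hda6, and 3840 in wildtype 12-hr and 3640 in the wild type for sal1. PRR9 averaged 52.4 in wildtype 16-hr and 52.7 in the wild type for hda6, PRR3 81.7 in wildtype 12-hr and 84.8 in the wild type for sal1, and GI 248 and 245 in the same 12-hr groups. FRO6 averaged 269 and 464 CPM, and MAF5 26.8 and 1.12 CPM in wildtype 16-hr and in the wild type for hda6. In wildtype 12-hr and in the wild type for sal1, FRO6 averaged 119 and 41.1 CPM, and MAF5 3.74 and 16.2 CPM. These values were not tested, and whether the wild types were harvested at the same hour is not stated in the labels.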

How the data were processed

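RNA was sequenced as paired-end libraries, of which 12 entered the test. The deposited values are raw counts of reads per gene, and per the submitters' processing notes the tools were STAR 2.7.10a, Trim Galore 0.6.6 and cutadapt 2.8, with the build TAIR10. No source used here names the counting tool or its strand setting. Each table has 34262 gene IDs and 5 total lines, which were left out of library sizes and tests. The line for reads in no feature held 48.0% to 48.3% of the 16-hr and 2.58% to 5.78% of the 12-hr entries. All 32548 nuclear IDs matched the RefSeq annotation of TAIR10.1, which gave names, strands and promoters.

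From the counts, 1 model with a coefficient per group was fitted over the 12 libraries with edgeR 4.0.16 in R 4.3.3 (quasi-likelihood test, TMM scaling, filterByExpr with a minimum count of 10), and p-values were Benjamini-Hochberg adjusted over all 21163 genes tested. CPM are counts scaled to the TMM-scaled library sizes. Depth limits genes of few counts, more so at 16-hr. The p-values measure the spread between these samples, since no source says how far the replicates were grown apart. DESeq2 1.42.0, limma voom 3.58.1, other scalings and filters, leaving out each library and a replicate block were alternatives. The fit was tested on simulated data. Figures were drawn with matplotlib 3.10.9 (Python 3.11.15, pandas 2.3.3, numpy 2.4.6).

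The text names CUE1, CCA1 and LHY, the 10 highest and 10 lowest differences among called genes that reach a group mean of 5 CPM, every called member of 15 pathway lists, and the 4 highest and 4 lowest shared effects. Other genes named are marked as chosen after their values were seen. The members and lists were chosen with earlier results of these data known. Lists are described by counts and medians with no test of the list.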

Additional observations from a re-analysis of the deposited data

Results flagged for a closer look

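The genes below are those named in the report whose cue1 effect differed between 16-hr and 12-hr days by the edgeR test of the difference itself. Values are log2 differences, 16-hr minus 12-hr. Day length and sequencing set cannot be told apart in any of them.

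Among the positive differences, the clock genes were FKF1 at 2.2, AT4G33980 at 2.17, COR27 at 2.15, PRR5 at 1.72 and PRR3 at 1.29. Those outside the clock list were AT3G06955 at 3.84, AT1G07050 at 2.48, TPS03 at 1.97, BBX8 at 1.8, AT1G17665 at 1.58, AT5G03585 at 1.48, GRP7 at 1.11 and BBX13 at 0.96, and the ribosome biogenesis genes AT3G15460 at 0.78, NSN1 at 0.66, FIB1 at 0.55 and AT2G37990 at 0.54.

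Among the negative differences, MAF5 stood at -7.0, followed by the unnamed loci AT3G02370 at -2.26, AT4G33666 at -2.01, AT4G26288 at -1.74 and AT1G05253 at -1.59, and by the ferric reductase FRO6 at -1.55. Chloroplast and photosynthesis genes were RBCS2B at -1.92, LHCB4.3 at -1.78, HCF173 at -1.17, FRO7 at -1.08, CP12-2 at -0.71 and PGR3 at -0.55. Light response and chloroplast movement genes were RPT2 at -0.99, SPA3 at -0.87, JAC1 at -0.85, PMI2 at -0.83, PMI1 at -0.62 and PMI15 at -0.58. Sugar and wall enzymes were CSLB04 at -1.65, BXL1 at -1.6, ATSPS4F at -1.17 and TPS8 at -0.73, and the clock genes were LNK3 at -1.13 and RVE4 at -0.65.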

How the results depend on the processing

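Counts of calls moved more than the effects. Against 168 calls of the difference in the report, DESeq2 gave 925 (333 positive and 592 negative) and a model of all 30 libraries 558, while scaling by relative log expression gave 162, no filter 159, a minimum count of 50 195, limma voom 145 and leaving out genes overlapped on the opposite strand 173. Leaving out 1 library gave 47 to 369 calls of the difference, 496 to 1372 at 16-hr and 71 to 357 at 12-hr. At 16-hr, DESeq2 gave 2054 calls against 1231. At 12-hr it gave 1080 against 332, and the model of all 30 libraries gave 656. Leaving out both 12-hr libraries with few reads in no feature, chosen after seeing the data, gave 139. The cause of these shifts was not tested. A replicate block within day length gave 18 calls of the difference, 664 at 16-hr and 86 at 12-hr. The labels do not tie equal numbers to a shared source, and the deviations of same-numbered samples correlated at 0.0724, 0.0593 and -0.0312 at 16-hr and at 0.1051, -0.2104 and -0.3194 at 12-hr, so the numbers were not taken as pairs. The CUE1 difference, not called at -0.21, ran from -0.33 to 0.0098 on leaving out 1 library, changing sign without cue1 12-hr replicate 3, and was 0.018 without both of those 12-hr libraries. Of the other values of named genes, 3438 stayed on the same side of the threshold, 403 lost the call and 36 gained it.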
